A study of Neurospora crassa with 34 samples.

Results

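The genes described here are those that the deposited table of changed H3K27me2/3 regions lists as gained in ALS159, a Neurospora crassa strain in which a segment of the right arm of linkage group (LG) IV was moved to the tip of LG VI. Unique gene identifiers listed as gains for ALS159 were taken, except for 2 further listed genes that were not analysed here, which left 74 of the 9730 genes in the count files. All 74 lie on LG IV. The table lists none of the 74 for another strain, and it lists no loss for ALS159. The paper does report a loss of the mark in ALS159, at the former end of LG VIR. The mark itself was not measured here, so what follows is the mRNA level of the 74 genes, strain by strain.

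H3K27me2/3 is the di- and trimethylated form of lysine 27 of histone H3. It is deposited by Polycomb repressive complex 2, whose catalytic subunit in N. crassa is SET-7, and it marks facultative heterochromatin, in which genes are mostly silent. In this fungus the mark is concentrated near chromosome ends. A translocation that moves the end of one chromosome to another therefore leaves a chromosome with a new end. ALS159 is such a case, with a new end of LG IV near the break in its right arm. The paper describes this translocation as reciprocal in its text and as quasiterminal in its list of breakpoints. Whether a piece of LG VI lies beyond the break on LG IV was not examined here.

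Poly(A) mRNA was sequenced from 2 libraries of each of 8 groups. ALS159 (isolate N5101, mat A; T(IV->VI)ALS159) was set against AR16 (N5100, mat a, In(IL->IR)AR16), OY337 (N5858, mat A, T(II->IV), al-2), OY350 (N5862, mat A, T(VIL->IR)), UK2-32 (N5859, mat A, T(IVR->VL)), UK3-41 (N5866, mat A, inl, T(VR)), OY329 delta set-7 (isolates N6086 and N6087) and OY329 (N5102, mat A, T(VI->III)). The marker alleles al-2 and inl are an albino and an inositol-requiring mutation. OY337 and UK2-32 also have a break on LG IV. All cultures were grown for 16 h at 32 °C in medium with 1.5% sucrose. Each strain is 1 isolate, so a difference between strains cannot be told apart from other differences in genetic background, and the wild-type mRNA libraries were not analysed here.

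The libraries held between 6435058 and 27994440 reads assigned to genes, both extremes being OY329 libraries. OY329 replicate 1, the larger, had an index of 8 nt and 10.0% of reads without a gene, and replicate 3 had 6 nt and 26.3%. The OY329 delta set-7 libraries also had indexes of 8 nt, and all other libraries had 6 nt. In the libraries labelled OY329 delta set-7, set-7 (NCU07496) stood at 3.47 and 2 CPM (counts scaled to the TMM size of each library), against 9.72 and 9.52 CPM in OY329, a log2 fold change of -1.79 ± 0.26 (SE, adjusted p = 0.0036). Reads on the deleted gene were therefore reduced and not absent. Of 5 genes for conidiation, the making of asexual spores, 3 were lower in ALS159 than in the mean of the other 6 strains, con-8 (log2 fold change -7.40, adjusted p = 0.000224), con-10 (-5.72, adjusted p = 0.000149) and eas (-2.14, adjusted p = 0.0471). For con-6 (-0.67, adjusted p = 0.351) and con-13 (-2.33, adjusted p = 0.258) the test was not passed, and ALS159 had more con-6 and eas by its means (4.54 and 113 CPM) than UK2-32 (2.39 and 32.3 CPM). The summed level of the 5 was 73.4 to 170 CPM in ALS159, against 442 to 15826 CPM in the 6 other translocation strains, of which OY337 (2348 to 8480 CPM) and UK3-41 (5147 to 15826 CPM) were highest, mostly through eas. None of the defining genes stood at 0 in both ALS159 libraries, and the part of conidiation in what follows was not tested. In such bulk cultures, fewer cells of a kind and less RNA per cell cannot be told apart.

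Of 5 genes linked to H3K27 methylation, npf (NCU06679, cac-3 in RefSeq), a histone-binding subunit of the complex, was higher in ALS159. Over the mean of the other 6 translocation strains its log2 fold change was 0.34 ± 0.12 (adjusted p = 0.0375). For set-7 the log2 fold change was 0.26, for eed 0.28, for suz12 0.28 and for epr-1 0.27, and none of these passed the threshold. The 2 ALS159 libraries had 18.1 and 18.4 CPM of set-7.

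In RefSeq order, 142 genes run from the first to the last of the 74, with 66 genes that are not listed between them. The widest gap, 26 genes without a listed one, splits the list into a first stretch of 41 genes (NCU04925 to NCU07973) and a second stretch of 33 genes (NCU07946 to NCU07891). RefSeq gives a symbol of its own to 1 of the 74, NCU07945 (tah-4), so the genes are called by their identifiers and no function is given for them. In RefSeq, 9 of them overlap another gene: NCU04932 with NCU04933, NCU04986 with NCU04987, NCU07946 with NCU07945, NCU07895 with NCU07894, and NCU07891 with NCU15153. Whether the counting used strand, and how it treated reads on an overlap, is not given in the sources used here. The values of these genes may therefore hold reads of their partner or lack reads of their own.

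Which of the genes differed in ALS159 was asked first against the mean of the other 6 translocation strains, in an edgeR quasi-likelihood test over all genes with a Benjamini-Hochberg adjusted p of 0.05 as the threshold. Of the 74 genes, 49 passed the filter on low counts, and of these 36 were lower in ALS159, 3 were higher and 10 did not pass the threshold. The background was high, since 25.6% of the 8170 genes tested were called lower and 26% higher in the same comparison. The median log2 fold change of the 49 was -1.87, also with genes without reads in ALS159 set at their bound, against -0.00 over all genes tested. A gene that is high in another strain alone passes the filter by that strain, so these counts do not describe all 74 genes. With no filter, 71 genes with a read were fitted, of which 38 were lower and 2 higher, with a median of -1.60. The share of all genes called in that fit is not given here, so these 38 and 2 have no background beside them.

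Both ALS159 libraries lay below all 12 libraries of the other 6 strains for 26 of the 71 genes that had a read in these 14 libraries, against 11.2% of the 9460 genes with a read. For NCU04936 alone among the 71 both lay above all 12, against 10.7% of those 9460 genes. ALS159 had the lowest mean of the 8 groups for 29 of the 49 genes that passed the filter, and UK3-41 had the lowest mean for 9. The share of all genes with their lowest mean in either strain was not taken, so these counts have no background beside them.

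**Figure D1:**
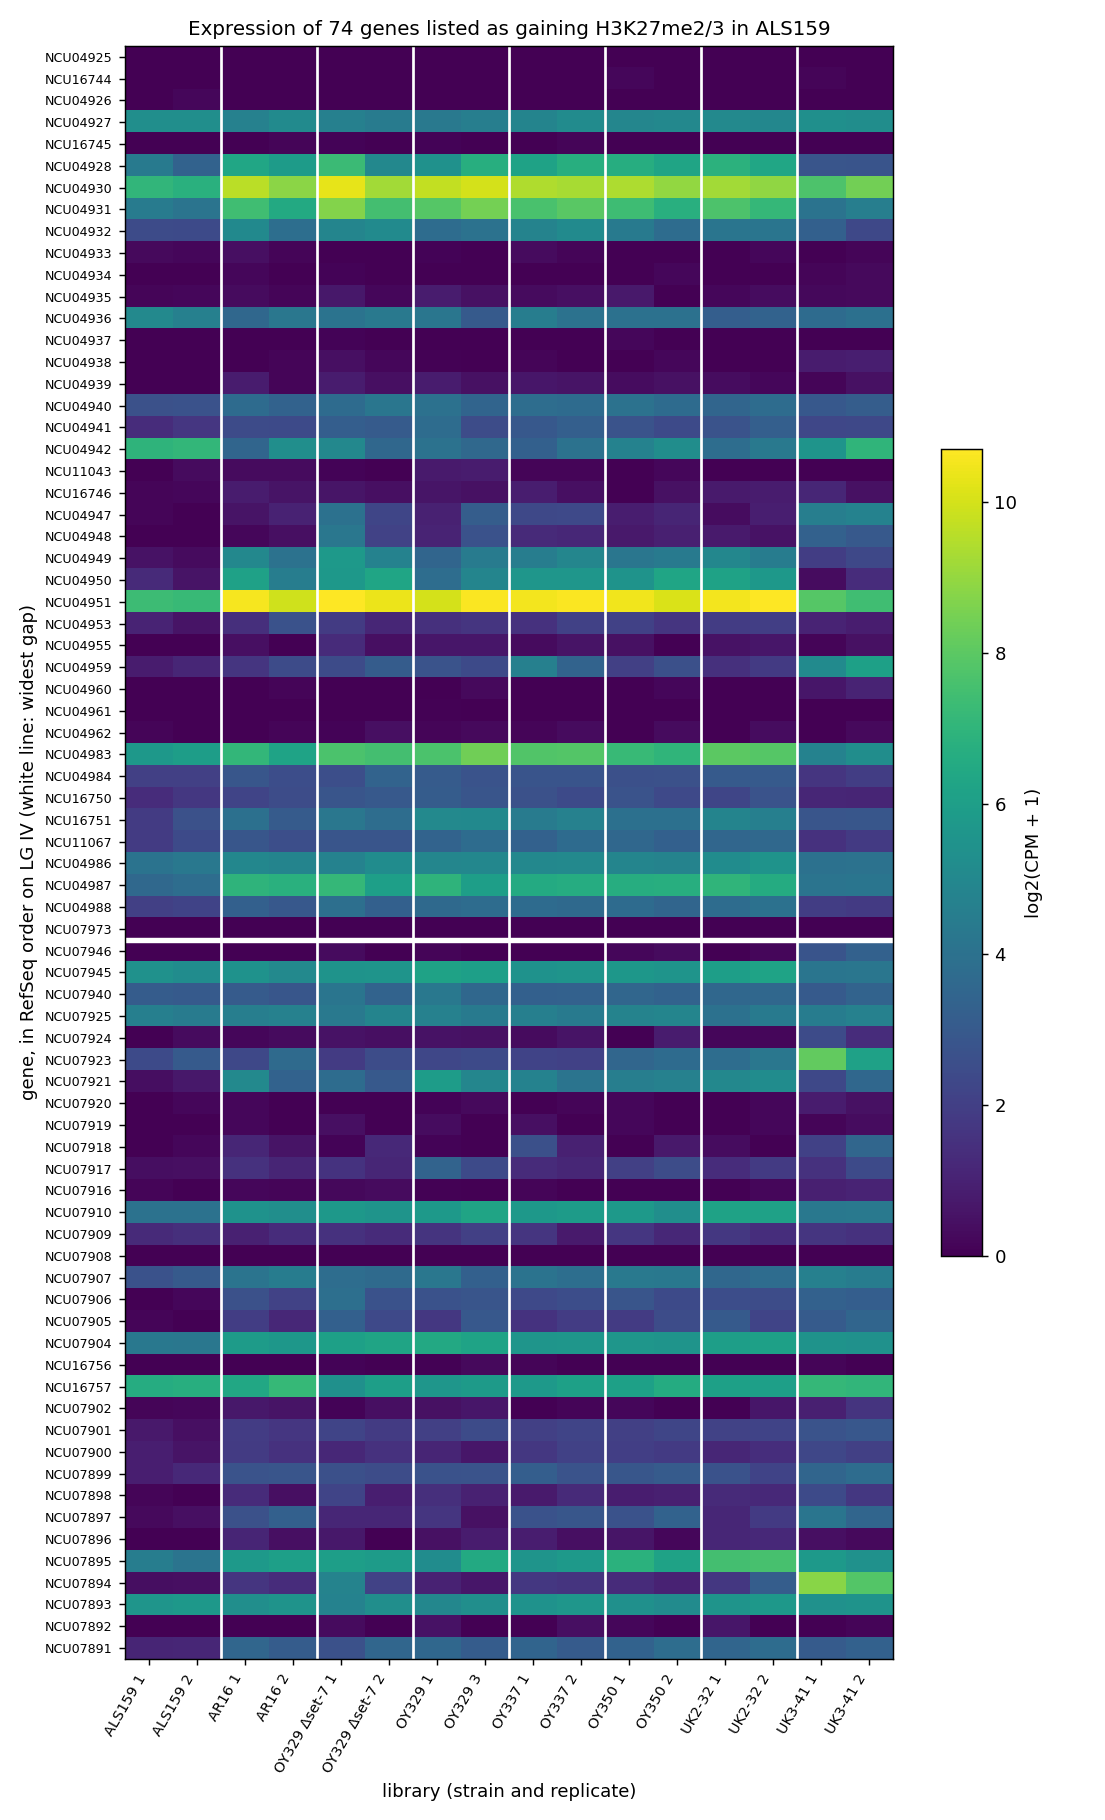
log2(CPM + 1) of the 74 listed genes (rows, in RefSeq order on LG IV) in the 16 libraries (columns, by group), with levels to be compared within a row. The ALS159 columns are darker than the others in many rows of both stretches, UK3-41 is as dark in rows of the first stretch such as NCU04928 and NCU04950, and 3 rows hold no read.

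The genes follow in the order of their identifiers. Values in ALS159 are those of replicates 1 and 2, values of other groups are means of 2 libraries unless libraries are named, and a log2 fold change is that of ALS159 over the mean of the other 6 strains with its standard error. For genes that are not among the 10 largest falls, the rises or the calls that changed under another setting, the fold change and its call are given alone.

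NCU04927 was 1 of the 3 genes that rose, though by little. It had 38 and 37.8 CPM in ALS159, against a lowest, median and highest of 19.1, 30.4 and 38.8 CPM in the 12 libraries of the other strains, so the groups overlapped. The log2 fold change was 0.36 ± 0.14 (adjusted p = 0.0445), and the call was lost in 14 alternative settings, among them DESeq2 (adjusted p = 0.0538) and the fits without either ALS159 library (0.203 and 0.172). UK3-41 stood as high, at 37.9 CPM.

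NCU04928 fell in ALS159, and UK3-41 was low as well. The ALS159 libraries held 19.4 and 9.26 CPM and UK3-41 averaged 5.94 CPM, whereas the means of AR16, OY329, OY337, OY350 and UK2-32 ran from 68.5 to 97.1 CPM. The log2 fold change of -1.87 passed the threshold. Compared group by group, ALS159 was lower than all but UK3-41. The 2 OY329 delta set-7 isolates had 156 and 31.2 CPM and so differed widely from each other.

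At NCU04930, 132 and 111 CPM were measured in ALS159, under all 12 libraries of the other strains (206, 615 and 1022 CPM as lowest, median and highest). Here ALS159 was lower than each of the 7 other groups, with a log2 fold change of -2.22 past the threshold, and UK3-41, at 273 CPM, came next to it. NCU04931, its neighbour, had 20.8 and 16.4 CPM in ALS159, close to the 19.5 CPM of UK3-41, while the other 5 strains averaged 129 to 291 CPM. It fell by 2.75 on the log2 scale.

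For NCU04932 the pattern was alike, with 4.37 and 4.32 CPM in ALS159 and 6.36 CPM in UK3-41, against 13.9 to 30.4 CPM in the other 5 strains and 30.9 CPM in OY329 delta set-7. It fell by 1.88 on the log2 scale, and ALS159 was lower than every group but UK3-41. NCU04936 went the other way and rose, past the threshold against OY329, UK2-32 and UK3-41 and not against the other groups by themselves. Its 31.9 and 24.5 CPM in ALS159 lay above all 12 libraries of the other strains (lowest 7.19, median 14.5, highest 22.4 CPM), with a log2 fold change of 1.06 ± 0.26 (adjusted p = 0.0064). Without ALS159 replicate 1 the adjusted p was 0.111.

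NCU04940 had 5.22 and 5.56 CPM in ALS159, below the 6.63 CPM of the lowest other library, and its fall of 1.07 on the log2 scale passed the threshold. NCU04941 fell as well, to 1.6 and 2.22 CPM in ALS159, against 3.83, 5.18 and 12.6 CPM as lowest, median and highest of the 12 libraries. This was a log2 fold change of -1.62 ± 0.38 (adjusted p = 0.00525), or 0.0824 without ALS159 replicate 1. Neither differed between ALS159 and UK3-41 past the threshold.

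The largest rise was that of NCU04942. ALS159 had 122 and 136 CPM, AR16 24.2 CPM, OY329 delta set-7 21.1 CPM, OY329 13.2 CPM, OY337 12.1 CPM, OY350 31.4 CPM and UK2-32 16.2 CPM. UK3-41 was high too, at 45.6 and 127 CPM, so that its second library lay between those of ALS159. The log2 fold change was 2.45 ± 0.36 (adjusted p = 0.000456), and ALS159 was higher than each group but UK3-41.

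NCU04947 and NCU04948 lie next to each other and were nearly silent in ALS159. NCU04947 had 1 read in ALS159 (0.107 and 0 CPM), against means of 0.581 CPM in UK2-32 to 24.4 CPM in UK3-41. Over pooled counts the other strains stood 104-fold higher, with a 95% exact counting interval of 18.5 to 4094. This ratio was set mostly by UK3-41, which held 248 and 261 of the 681 pooled reads. In the test the log2 fold change was -5.07 ± 1.32 (adjusted p = 0.00914), but 0.0625 and 0.0683 without ALS159 replicates 1 and 2.

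NCU04948 had no read in ALS159. A count of 0 over both libraries allows up to 0.172 CPM, so the gene was at least 13.7-fold lower in ALS159 than in the pooled libraries of the other 6 strains, which held 271 reads. It was called lower (adjusted p = 0.00758, or 0.0592 without ALS159 replicate 1). Its means were 0.239 CPM in AR16, 0.568 CPM in UK2-32, 0.781 CPM in OY350, 1.36 CPM in OY337, 3.25 CPM in OY329 and 8.02 CPM in UK3-41. Both genes were called lower than in OY329, OY337, UK3-41 and OY329 delta set-7 and not than in AR16, OY350 and UK2-32, where they were low as well.

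NCU04949 was among the clearest falls. The ALS159 libraries had 0.426 and 0.247 CPM, against 2.89, 20.4 and 31 CPM as lowest, median and highest of the 12 libraries, and UK3-41, at 3.46 CPM, held the lowest of these. This was a log2 fold change of -5.47 ± 0.55 (adjusted p = 4.90e-05), and ALS159 was lower than all 7 groups. At NCU04950, ALS159 had 1.39 and 0.494 CPM and UK3-41 0.28 and 1.57 CPM, so these strains overlapped, whereas AR16, OY329, OY337, OY350 and UK2-32 averaged 20.7 to 61.2 CPM. This gave a log2 fold change of -4.57 ± 0.73 (adjusted p = 0.000723).

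NCU04951 had 160 and 147 CPM in ALS159. UK3-41 was the only other strain near this, at 204 CPM, and the other 5 strains averaged 1239 to 1548 CPM. The fall of 2.71 on the log2 scale passed the threshold against the mean of the 6 strains and against each group but UK3-41. NCU04953 was weaker, and among single groups it was called lower in ALS159 than in AR16 and UK2-32 alone. It had 1.07 and 0.494 CPM in ALS159 and 0.787, 2.16 and 5.42 CPM as lowest, median and highest elsewhere. The fall was -1.49 ± 0.50 on the log2 scale (adjusted p = 0.0294), and without ALS159 replicates 1 and 2 the adjusted p was 0.0722 and 0.219.

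NCU04959 fell by 2.84 on the log2 scale, past the threshold. It had 0.746 and 1.24 CPM in ALS159, 2.15 CPM in UK2-32, 3.3 CPM in AR16, 4.09 CPM in OY350, 5 CPM in OY329, 16.9 CPM in OY337 and 50 CPM in UK3-41. ALS159 did not differ past the threshold from AR16 and UK2-32, the next in this order.

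At NCU04983, ALS159 (51.4 and 60.8 CPM) lay between UK3-41 (31.3 CPM) and the other 5 strains (104 to 268 CPM). It was lower than in 6 groups and higher than in UK3-41, by 0.84 on the log2 scale (adjusted p = 0.0462), and the fold change over the mean of the 6 strains was -1.29, past the threshold. NCU04984 was not called lower in ALS159 than in AR16, OY350 and UK3-41. It had 3.09 CPM in both ALS159 libraries, against 2.15, 5.74 and 7.32 CPM as lowest, median and highest of the 12. The difference was -0.75 ± 0.21 on the log2 scale (adjusted p = 0.0122), and leaving out either ALS159 library gave 0.101 and 0.0813.

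NCU04986 and NCU04987 overlap, and both fell past the threshold, with log2 fold changes of -0.69 and -2.65. NCU04986 had 15.8 and 18.4 CPM in ALS159, against 15.2 CPM in UK3-41 and 27.6 to 39.6 CPM in the other 5 strains. NCU04987 had 11.1 and 13.3 CPM in ALS159, against 16.6 CPM in UK3-41 and 94.1 to 117 CPM in the other 5. NCU04988, with 3.09 and 3.46 CPM in ALS159, 2.73 CPM in UK3-41 and 7.67 to 13.7 CPM elsewhere among the strains, fell by 1.43 past the threshold. For all 3 genes, ALS159 was lower than each group but UK3-41.

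**Figure D2:**
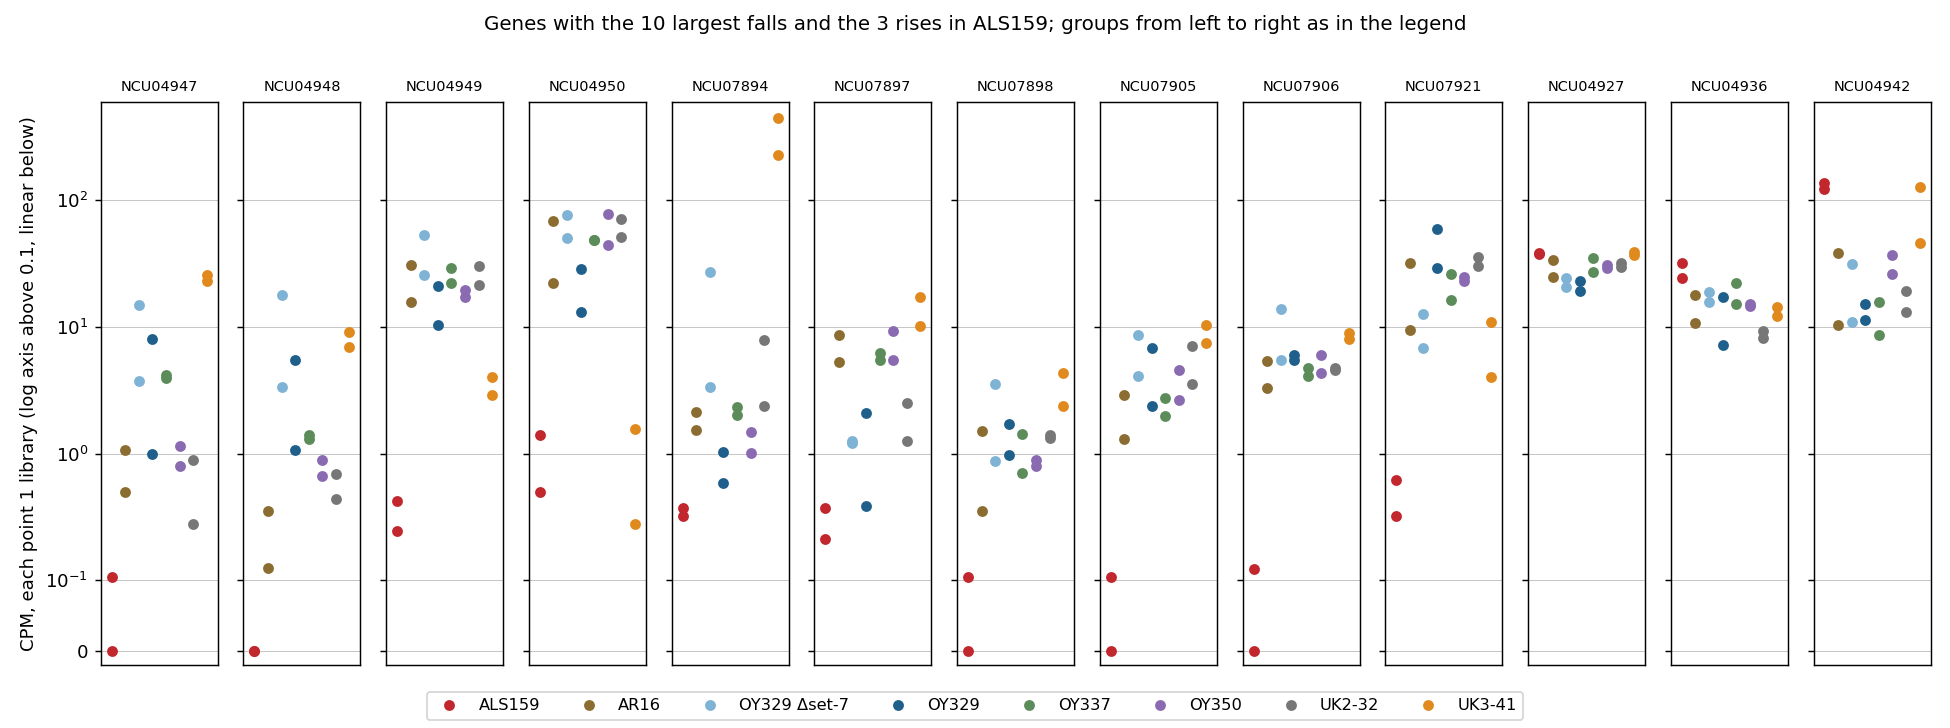
CPM per library (each point 1 library, log axis above 0.1 and linear below) of the genes with the 10 largest falls and the 3 rises in ALS159, with the 8 groups from left to right in each panel. ALS159 holds the lowest points at NCU04949 (0.426 and 0.247 CPM) and NCU07906 (0 and 0.124 CPM), UK3-41 lies as low at NCU04950, and the rise of NCU04942 is shared by UK3-41.

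In the second stretch, the gene at its outer edge, NCU07891, separated ALS159 from all groups. It had 1.17 and 1.24 CPM in ALS159, against 7.37, 9.64 and 13 CPM as lowest, median and highest of the 12 libraries of the other strains. The fall of 2.98 on the log2 scale passed the threshold. NCU07893, near it, had 46.4 and 50.6 CPM in ALS159 and 30.1, 42.2 and 50.8 CPM as lowest, median and highest, and its log2 fold change of 0.23 did not pass the threshold.

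NCU07894 was low in ALS159 and very high in UK3-41. ALS159 had 0.32 and 0.371 CPM, OY329 0.806 CPM, OY350 1.25 CPM, AR16 1.83 CPM, OY337 2.18 CPM, UK2-32 5.16 CPM and UK3-41 336 CPM. The log2 fold change of ALS159 was -3.65 ± 0.66 (adjusted p = 0.00132), but ALS159 was called lower than UK2-32, UK3-41 and OY329 delta set-7 alone. Its overlapping partner NCU07895 had 22.5 and 16.5 CPM in ALS159, below the 36.4 CPM of the lowest other library, and fell by 1.90 on the log2 scale. It was lower than in all 7 groups, of which UK2-32 was highest at 188 CPM.

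NCU07897 and NCU07898 were both near 0 in ALS159. NCU07897 had 0.213 and 0.371 CPM there, against 1.24 CPM in OY329 to 13.6 CPM in UK3-41, with a log2 fold change of -4.00 ± 0.66 (adjusted p = 0.000872). NCU07898 had 1 read in ALS159 (0.107 and 0 CPM) and 0.354, 1.36 and 4.29 CPM as lowest, median and highest of the 12 libraries. Its pooled level in the other strains was 28.1-fold higher (95% counting interval 4.98 to 1117), and the log2 fold change was -4.26 ± 0.93 (adjusted p = 0.00372). Group by group, NCU07897 was not called lower than in OY329 delta set-7, and NCU07898 not than in AR16 and OY350.

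NCU07899, NCU07900 and NCU07901 follow each other and all fell. NCU07899 had 0.853 and 1.36 CPM in ALS159, against 4.47 to 11.6 CPM as means of the 6 strains, and fell by 2.57 on the log2 scale. NCU07901 had 0.639 and 0.371 CPM in ALS159, against 2.5 to 6 CPM, and fell by 2.77. Both were lower in ALS159 than in all 7 groups. NCU07900, with 0.853 and 0.494 CPM in ALS159, overlapped OY329 (0.882 CPM on average, of which the lowest library had 0.583 CPM). It was not called lower than in OY329, UK2-32 and OY329 delta set-7. On the log2 scale ALS159 lay -1.60 ± 0.37 from the mean of the 6 strains (adjusted p = 0.00505), or 0.0666 without ALS159 replicate 2.

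NCU07904 had the smallest standard error among the falls of this stretch. Its 18.4 and 18 CPM in ALS159 lay below 42.1, 49.2 and 86.7 CPM, the lowest, median and highest of the 12 libraries, and it fell by 1.58 on the log2 scale, in each of the 7 comparisons as well.

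NCU07905 and NCU07906, its neighbours, had 1 read each in the 2 ALS159 libraries together. NCU07905 stood at 0.107 and 0 CPM in ALS159, against 1.3, 3.2 and 10.3 CPM as lowest, median and highest elsewhere, 74-fold higher in the pooled other strains (95% counting interval 13.2 to 2930). NCU07906 stood at 0 and 0.124 CPM, against 3.3, 5.06 and 8.96 CPM, or 97.7-fold higher elsewhere (17.5 to 3866). Their log2 fold changes were -5.80 ± 0.96 (adjusted p = 0.000839) and -6.24 ± 0.55 (adjusted p = 1.87e-05). Both were lower in ALS159 than in all 7 groups, and the lowest library of another strain held 1.3 CPM of NCU07905 and 3.3 CPM of NCU07906.

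NCU07907 fell by 1.36 on the log2 scale, with 5.54 and 7.29 CPM in ALS159 and 8.74, 17.4 and 24.1 CPM as lowest, median and highest of the 12 libraries. NCU07910 had 15.3 and 15.6 CPM in ALS159, just under UK3-41 at 18.7 CPM and well under the 40.5 to 70.3 CPM of the other 5 strains. It fell by 1.54, and ALS159 was lower than each group but UK3-41. NCU07909, between them, had 1.39 and 1.73 CPM in ALS159 and 1.27 to 2.58 CPM as means of the 6 strains, a log2 fold change of -0.19 that did not pass the threshold.

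NCU07917 had 0.32 and 0.371 CPM in ALS159, below the 1.18 CPM of the lowest other library, and fell by 2.90 on the log2 scale and in all 7 comparisons. NCU07918 had 1 read in ALS159 and no read in 3 libraries of other strains, while UK3-41 averaged 6.9 CPM. Its log2 fold change of -3.19 did not pass the threshold.

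NCU07921 fell strongly, to 0.32 and 0.618 CPM in ALS159, against 7.47 CPM in UK3-41, 9.75 CPM in OY329 delta set-7, 20.7 CPM in AR16, 21.1 CPM in OY337, 23.9 CPM in OY350, 33.2 CPM in UK2-32 and 44 CPM in OY329. The log2 fold change was -5.55 ± 0.78 (adjusted p = 0.000355), and ALS159 was lower than each of the 7 groups.

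The genes that follow did not pass the threshold. NCU07923 had 4.26 and 7.16 CPM in ALS159, within the 3.36 to 15.5 CPM of 5 strains, and UK3-41 stood apart at 278 and 69.7 CPM. Over the mean of the 6 strains the log2 fold change was -1.11 ± 0.52 (adjusted p = 0.097), and 0.0331 with DESeq2. NCU07924 had 2 reads in ALS159 (0 and 0.247 CPM, a mean of 0.124 CPM), against means of 0.143 to 0.423 CPM in the same 5 strains and 2.98 CPM in UK3-41. Its log2 fold change of -1.74 did not pass the threshold. NCU07925 had 23.4 and 20.7 CPM in ALS159 and 17.6 to 27.5 CPM as means of the 6 strains, a log2 fold change of -0.04.

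NCU07940 had 7.67 and 7.29 CPM in ALS159 and 6.87 to 14.7 CPM as means of the 6 strains. Its log2 fold change of -0.38 ± 0.21 (adjusted p = 0.147) passed the threshold without OY329 replicate 3 (0.0333). NCU07945 (tah-4) had 41.5 and 35.8 CPM in ALS159, with UK3-41 lowest at 17 CPM and 37.1 to 68.6 CPM in the other 5. The fold change of -0.15 ± 0.13 on the log2 scale was not called (adjusted p = 0.352), and 0.0209 with UK3-41 left out of the other strains.

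NCU07946, the overlapping partner of NCU07945, had no read in ALS159. It had 62 and 91 reads in UK3-41 and at most 3 in any other library, so the pooled other strains were at least 8.11-fold higher, a bound set by UK3-41 alone, and the test against the 6 strains did not pass the threshold (adjusted p = 1).

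The last genes in this order follow. NCU11067 had 2.66 and 4.32 CPM in ALS159, against 2.21 CPM in UK3-41 and 5.66 to 11.3 CPM in the other 5 strains. At -1.08 ± 0.25 on the log2 scale it was called lower (adjusted p = 0.00525), or 0.102 without ALS159 replicate 1. NCU16750 was alike, with 1.6 and 2.35 CPM in ALS159, 1.2 CPM in UK3-41 and 4.11 to 6.78 CPM in the other 5, and was called lower at -1.01 ± 0.28 on the log2 scale (adjusted p = 0.012), or 0.162 without the same library.

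NCU16751 had 2.66 and 5.31 CPM in ALS159, below the 5.98 CPM of the lowest other library, which was of UK3-41, and fell by 2.03 on the log2 scale. NCU16757 had 98.5 and 103 CPM in ALS159, between the means of OY350 (80.7 CPM) and AR16 (115 CPM). Its log2 fold change was 0.34 ± 0.18 (adjusted p = 0.139), and 0.041 with UK3-41, the highest at 134 CPM, left out of the other strains.

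The other 25 genes did not pass the filter and were not tested, and none had more than 21 reads in a library. NCU04925, NCU07908 and NCU07973 had no read in any of the 16 libraries. Of the 74 genes, tested or not, 15 had no read in ALS159 and at least 1 elsewhere, and for most of them the other strains were near the floor as well. NCU07896 was the clearest, with 0 reads in both ALS159 libraries and 1 to 10 in each of the 12 libraries of the other strains, at least 3.29-fold lower in ALS159. Without the filter it was called lower (adjusted p = 0.0132), as was NCU04939 (0.0287), which had 1 to 20 reads in each of the 12 libraries and was at least 2.58-fold lower.

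NCU04955 had no read in ALS159 and 0 to 15 elsewhere among the strains (at least 2.13-fold lower). NCU04938, NCU04960 and NCU07892 were at least 1.06-, 1.01- and 1.01-fold lower, which says little at this depth. UK3-41 held 8 and 9 of the 21 pooled reads of NCU04938 and 6 and 11 of the 20 of NCU04960. The 12 libraries held 5 reads in all of NCU04934, 1 of NCU04937, 1 of NCU04961, 17 of NCU07919, 2 of NCU16744, 4 of NCU16745 and 4 of NCU16756, and ALS159 held none, so that a difference was not detectable at this depth.

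The rest had reads in ALS159. NCU16746 had 2 reads there and 66 in the 12 libraries, 5.02-fold higher elsewhere (95% counting interval 1.33 to 42.3). NCU07902 had 2 and 59, 4.48-fold higher in the pooled other strains (1.19 to 37.9). UK3-41 held 10 and 21 of those 59 reads, and the means of OY337 (0.0594 CPM) and OY350 (0.0667 CPM) lay below that of ALS159 (0.115 CPM). For NCU04935 the ratio was 3.19 (0.83 to 27.2), for NCU07916 3.95 (0.649 to 162), for NCU07920 2.89 (0.459 to 120), for NCU11043 2.28 (0.579 to 19.7), for NCU04962 2.13 (0.324 to 90) and for NCU04933 0.557 (0.147 to 3.11), so these intervals hold a ratio of 1. NCU04926 had 1 read in all, in ALS159 replicate 2. These bounds and intervals cover counting error only.

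**Figure D3:**
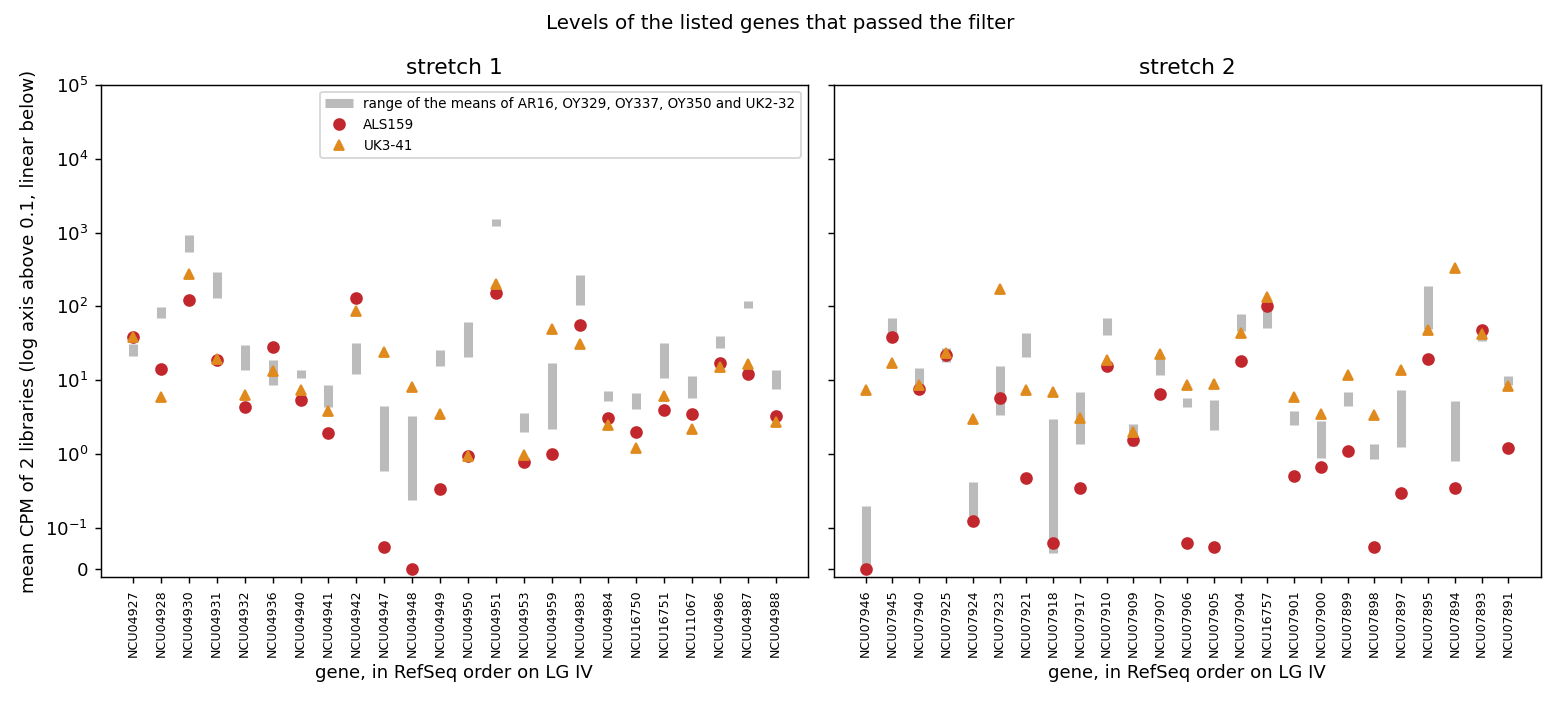
Mean CPM of 2 libraries for the 49 genes that passed the filter (log axis above 0.1, linear below) in RefSeq order, with the first stretch on the left and the second on the right; circles are ALS159, triangles UK3-41 and bars the range of the means of AR16, OY329, OY337, OY350 and UK2-32. Circles and triangles lie together under the bars at NCU04928, NCU04931, NCU04950 and NCU04987, while at NCU07894, NCU07905 and NCU07906 the triangles lie above the bars and the circles below.

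ALS159 was then set against each group by itself, in a fit of all 16 libraries. The 7 comparisons share the ALS159 libraries. Against AR16, 28 of the 49 genes were lower and 1 higher, with 13.6% of all genes tested lower and 9.32% higher. Against OY329 delta set-7, 34 were lower and 4 higher (26.1% and 22% of all genes). Against OY329, 35 were lower and 5 higher (29.1% and 27.3%). Against OY337, 35 were lower and 1 higher (20.4% and 17.1%). Against OY350, 30 were lower and 1 higher (16.8% and 13.2%). Against UK2-32, 33 were lower and 2 higher (23.6% and 22.1%). Against UK3-41, 23 were lower and 3 higher (17.9% and 15.5%).

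In ALS159, 12 genes were lower than in all 7 groups: NCU04930 and NCU04949 in the first stretch, and NCU07891, NCU07895, NCU07899, NCU07901, NCU07904, NCU07905, NCU07906, NCU07907, NCU07917 and NCU07921 in the second. The same held for 4.38% of all genes tested. Another 12 genes were lower than in every group but UK3-41, from which they did not differ past the threshold, and of these NCU07910 alone lies in the second stretch. That pattern was met by 3.68% of all genes tested. The median log2 fold change was -0.62 against UK3-41 and between -2.05 and -1.62 against the other groups, beside medians of -0.05 to 0.00 over all genes tested. The count against AR16 was 16 without ALS159 replicate 1 and 18 without AR16 replicate 1.

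**Figure D4:**
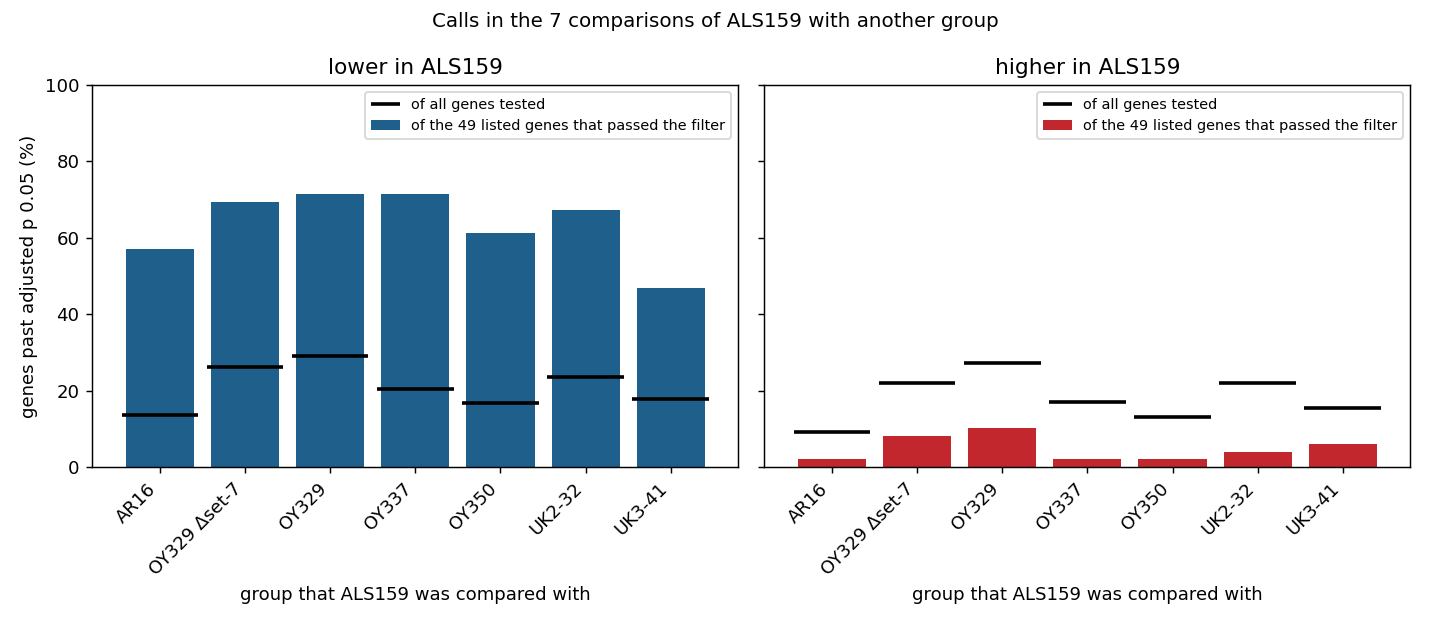
Percentage of the 49 listed genes that passed the filter (bars) and of all genes tested (black lines) that were lower (left) or higher (right) in ALS159 than in each of 7 groups, at an adjusted p under 0.05. The bars lie above the lines on the left in all 7 comparisons and below them on the right, and the lowest bar on the left is that of UK3-41, with 23 of 49 genes.

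The comparison with UK3-41 differed between the stretches. In the first stretch, where 24 genes passed the filter, 5 were lower in ALS159 than in UK3-41, 2 were higher and 17 did not pass the threshold, with a median log2 fold change of -0.17. Of all genes tested, 17.9% were lower and 15.5% higher in ALS159 than in UK3-41, with a median of -0.02. Against OY337, for instance, 20 of the 24 genes of the first stretch were lower (20.4% of all genes), with a median of -2.22. In the second stretch, where 25 genes passed, 18 were lower in ALS159 than in UK3-41 and 1 was higher, with a median of -3.10. The 18 hold NCU07946 and NCU07924, which passed the filter through UK3-41 and so had to be high there. The stretches were set by gene order alone, but the description by stretch was chosen after the levels had been seen, and no test between them was made.

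How the genes varied among strains that are not listed with the gain was asked with ALS159 left out, each strain against the mean of the remaining 5. In UK3-41, 21 of the 49 genes were lower and 19 higher, with 28.2% of all genes lower and 31.4% higher. By stretch, 17 of 24 genes were lower and 5 higher in the first, and 4 of 25 lower and 14 higher in the second. The median log2 fold change was -1.53 in the first stretch and 0.82 in the second, beside 0.02 over all genes tested. NCU07946 had 62 and 91 reads in UK3-41 and at most 3 in any other library. NCU07924 had 47 and 16 in UK3-41 and at most 12 in any other. Both passed the filter through UK3-41, so their rises there were set by the filter and are part of the 14 and of the median of 0.82.

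Falls in UK3-41 in the first stretch reached a log2 fold change of -5.57 ± 0.73 at NCU04950 (adjusted p = 0.00011), -3.78 ± 0.45 at NCU04928 (6.96e-05) and -3.22 ± 0.35 at NCU04931 (3.80e-05). Large rises were 7.47 ± 0.27 at NCU07894 (4.50e-08), 4.60 ± 0.36 at NCU07923 (4.54e-06), 4.11 ± 0.66 at NCU07918 (0.000394) and 4.05 ± 0.46 at NCU04947 (4.75e-05). The log2 fold change of NCU07946 was 7.19 ± 0.46, but this gene passed the filter through UK3-41. Among the conidiation genes, eas (log2 fold change 5.25) and con-13 (7.95) were higher and con-8 (-3.70, adjusted p = 0.00153) was lower in UK3-41, while con-10 (-1.07) and con-6 (0.93) did not pass the threshold. UK3-41 also had, in the same comparison, more mRNA of set-7 (log2 fold change 1.11 ± 0.14, adjusted p = 7.22e-05), eed (1.63), suz12 (0.79), npf (0.75) and epr-1 (0.78), all past the threshold. The part of either in the levels of the 49 genes was not tested.

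**Figure D5:**
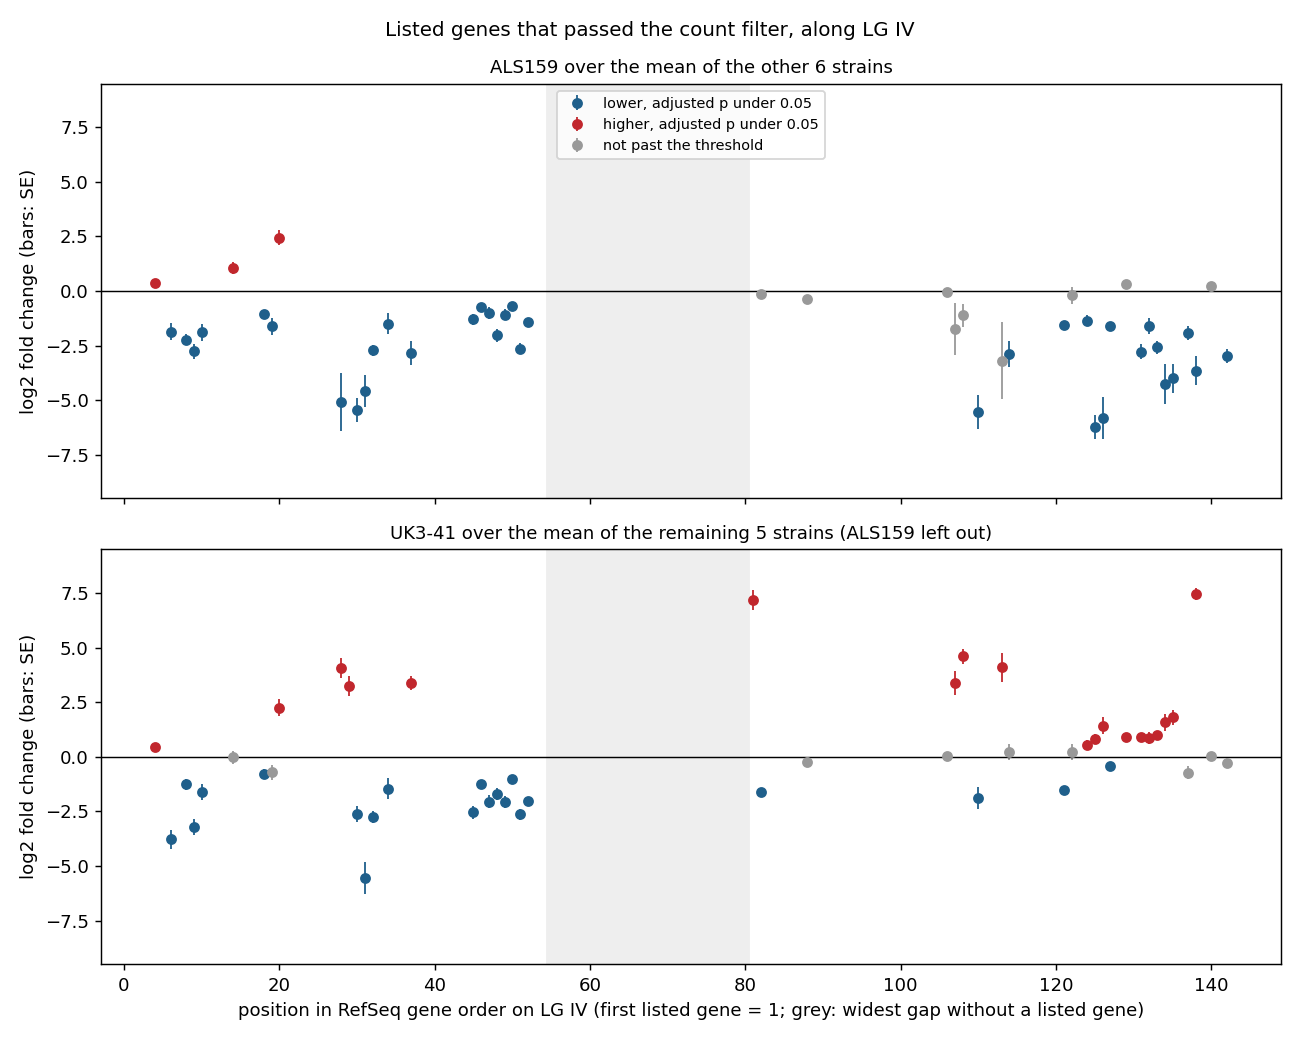
log2 fold change with its standard error for genes that passed the filter, by position in RefSeq gene order on LG IV, in ALS159 over the mean of the other 6 strains (top) and in UK3-41 over the mean of the remaining 5 strains (bottom); NCU04948 and NCU07946 are left out of the top panel because they had no read in ALS159. Most points lie under 0 at the top, but 3 genes of the first stretch are higher and 10 tested genes of the second did not pass the threshold. At the bottom 17 of the 24 genes of the first stretch are lower and 14 of the 25 of the second are higher. The 14 hold NCU07946 and NCU07924, which passed the filter through UK3-41.

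In the other strains fewer of the genes were called. In AR16, 0 of the 49 were lower and 2 higher (3.65% and 6.87% of all genes), in OY337 1 and 5 (2.13% and 4.76%), in OY350 1 and 1 (0.881% and 3.32%), in UK2-32 2 and 13 (9.93% and 13.9%), and in OY329 6 and 13 (18.7% and 21.7%). Beside the 0 of AR16 in edgeR, 7 genes were lower at an unadjusted p under 0.05 and DESeq2 called 4 lower. The largest rises in UK2-32 were log2 fold changes of 1.68 at NCU04950 and 1.64 at NCU07895, and NCU04983 was higher in OY329, OY337 and UK2-32 by 1.16, 0.85 and 1.01. Medians lay between -0.10 and 0.23. The 15 calls in UK2-32 were 3 and 1 without UK2-32 replicates 1 and 2, and 9 each without OY337 replicate 1 or UK3-41 replicate 1.

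The libraries labelled OY329 delta set-7, in which set-7 reads were reduced and not absent, were set against OY329, a strain without the listed gain at these genes. In this comparison 2 of the 49 genes were lower and 1 higher, with 2.7% of all genes lower and 4.84% higher, and a median log2 fold change of 0.02. NCU07921 was lower, at 12.6 and 6.86 CPM in OY329 delta set-7 against 58.9 and 29.1 CPM in OY329, a log2 fold change of -2.17 (adjusted p = 0.0433). NCU07917 had 1.99 and 1.25 CPM in OY329 delta set-7 against 9.53 and 4.27 CPM in OY329, a log2 fold change of -2.11 (adjusted p = 0.0294). NCU07894 was higher, with 26.9 and 3.37 CPM in OY329 delta set-7 against 1.03 and 0.583 CPM in OY329, a log2 fold change of 4.05 (adjusted p = 0.0174).

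The OY329 delta set-7 isolates differed from each other at several genes, with 15 and 3.74 CPM at NCU04947 and 17.8 and 3.37 CPM at NCU04948. The 3 calls became 1 without OY329 delta set-7 replicate 1, 0 without OY329 replicate 1 and 6 without OY329 replicate 3. No library of ALS159 with set-7 deleted was analysed here.

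Genes around and between the listed ones were set beside them, in ALS159 against the mean of the other 6 strains. Of the 20 genes before the list in RefSeq order, 11 were tested, with 9 lower, 2 higher and a median log2 fold change of -2.17. Of the 20 genes after it, 14 were tested, with 8 lower, 1 higher and a median of -1.47. Of the 66 genes between listed ones, 53 were tested, with 22 lower, 7 higher and a median of -0.20. Within the widest gap, 11 of 25 tested genes were lower and 3 higher. The shares are to be read against the 25.6% and 26% of all genes given above, and the H3K27me2/3 state of these neighbours is not known from the table.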

How the data were processed

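Poly(A) mRNA-seq libraries of 8 groups were analysed, 2 for each group. The deposited files hold whole-number counts of reads per gene made by the authors, and the submitters' processing notes name TopHat, Bowtie2 and HTSeq. Versions and the strand setting of the counting are not given in the sources used here. The authors' table of gained and lost H3K27me2/3 genes, from ChIP-seq of pooled replicates, was used for strain, gene and direction only. Its fold changes and p-values, which hold the authors' own comparisons, were not used, and neither was 1 further column of per-sample values.

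Rows without a gene, 5.61% to 27.0% of the reads of a library, were left out. Counts were fitted with edgeR 4.0.16 in R 4.3.3 (TMM, filterByExpr by group, quasi-likelihood test, Benjamini-Hochberg adjusted p threshold 0.05), which left 8170 genes in the fit of 14 libraries of 7 translocation strains and 8223 in the fit of all 16. In the first fit ALS159 was set against the averaged other 6 strains and each of those against the remaining 5, and in the second ALS159 against each group and OY329 delta set-7 against OY329. CPM values use the TMM sizes of 16 libraries, and a standard error is the size of the log2 fold change over the square root of F. Library totals of 6435058 to 27994440 set the precision. A count of 0 was taken to allow 3 counts, and intervals of ratios are exact with a level of 95%.

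The genes, lists and tests were chosen with earlier results of these data known. Every listed gene is named, with standard error and adjusted p for the 10 largest falls, each rise and each call lost under an alternative. P-values measure the spread between duplicate libraries labelled as biological replicates of 1 isolate (2 isolates for OY329 delta set-7). Alternatives were DESeq2 1.42.0, no filter, a minimum of 10 counts per library, blocking by replicate number, other reference strains and leaving out each library. Gene order, symbols and overlaps come from RefSeq (assembly NC12), in which all 74 genes were found.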

Additional observations from a re-analysis of the deposited data

How the results depend on the processing

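The 36 falls and 3 rises in ALS159 against the other 6 strains were 37 and 2 with DESeq2, 36 and 2 with all 16 libraries fitted, 37 and 4 with UK3-41 left out (a choice made after seeing the data, median log2 fold change -1.93) and 30 and 3 without genes that overlap another gene. Same-numbered libraries deviated together in some pairs of strains and not in most (3 of 15 pairs over 0.1, correlations of -0.258 to 0.384, OY329 left out). The fit with a replicate block gave 36 and 3. Requiring at least 10 counts in every library kept 29 of the genes, with 20 lower. In the comparisons with single groups it gave 16 lower against AR16, 21 against OY329 delta set-7, 22 against OY329, 20 against OY337, 19 against OY350, 21 against UK2-32 and 6 against UK3-41. Fewer genes are tested there, since genes low in ALS159 are removed. Under the same filter, calls either way were 1 in AR16, 3 in OY337, 0 in OY350, 22 in UK3-41 and 0 in OY329 delta set-7 over OY329. DESeq2 gave 6 in AR16 and 6 in OY329 delta set-7 over OY329, and the cause was not tested. For no alternative is the share of all genes called given beside the counts, so a changed count may hold for all genes alike.

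Leaving out 1 library at a time gave 29 to 38 lower and 1 to 4 higher genes in ALS159. The 29 came without ALS159 replicate 1. Against single groups the counts lower were 16 to 27 for AR16, 28 to 34 for OY329 delta set-7, 29 to 34 for OY329, 25 to 29 for OY337, 22 to 27 for OY350, 24 to 30 for UK2-32 and 20 to 23 for UK3-41. Calls either way with ALS159 left out were 0 to 5 in AR16, 17 to 22 in OY329, 0 to 11 in OY337, 0 to 3 in OY350, 1 to 22 in UK2-32 and 34 to 45 in UK3-41, and 0 to 6 in OY329 delta set-7 over OY329. With 2 libraries a group, the spread of the lone sample is then assumed to be that of the others. Of the calls in ALS159 against the other 6 strains, 10 were lost under some alternative, 4 further genes of the 49 gained one, and so did 3 genes under the filter (NCU04939, NCU07896 and NCU16746), and no value changed sign with a call. Genes with few reads are limited by depth, since 0 reads in ALS159 allow up to 0.172 CPM.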
